A study of Mus musculus with 12 samples.

Results

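The genes described here encode collagen chains, laminin chains and a set of glycoproteins, proteoglycans and cross-linking enzymes of the extracellular matrix. They were measured by RNA sequencing in BMEL cells, a line of bipotential hepatic progenitors from embryonic mouse liver. Members were taken by gene symbol and not by any measured value. They are the 44 protein-coding genes with a symbol of the collagen chain form, the 11 genes of laminin alpha, beta and gamma chains, and 16 named genes: Fn1, Fbn1, Fbn2, Sparc, Tnc, Acan, Vcan, Nid1, Nid2, Hspg2, Agrn, Lox, Loxl1, Loxl2, Loxl3 and Loxl4. These 71 genes were drawn from 21906 protein-coding genes among 54146 counted gene identifiers.

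The 12 libraries made 4 groups of 3: Cdk8 -/- cells transformed with H-RasG12V (Cdk8 knockout), Cdk19 -/- cells transformed with H-RasG12V (Cdk19 knockout), wild-type cells transformed with H-RasG12V (RasG12V), and wild-type cells without transformation (untransformed). CDK8 and CDK19 are paralogous kinases of the Mediator complex, and the G12V form of Ras is constitutively active. For every group, those called wild type included, the labels name a CDK8F/F mouse as the origin of the line. All were collected in exponential growth from dishes coated with collagen, in a medium with fetal calf serum, insulin, IGFII and EGF. The labels do not say whether a group is 1 clone or whether its libraries are separate cultures, so a p-value here reflects only how far these libraries spread, and that spread may be technical.

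Basement membranes are sheets of collagen IV and laminin networks joined by nidogens, perlecan and agrin, on which epithelial cells rest. A laminin is a trimer of an alpha, a beta and a gamma chain, and collagen IV is a trimer of alpha chains. In liver, cholangiocytes sit on a basement membrane, whereas the fibrillar collagens I and III are known mainly as products of stellate cells and portal fibroblasts.

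The libraries held 24823560 to 36879661 gene counts each, and 3 counts in 1 library correspond to 0.0813 to 0.121 CPM, the count scaled to library size. All levels below are TMM-scaled CPM unless given per kilobase. RasG12V replicate 3 and, less far, untransformed replicate 3 stood apart from their groups in a principal component analysis of all genes. RasG12V replicate 3 lay at 4.75 on the first component (60.2% of the variance), against 28.0 and 28.4 for the other RasG12V libraries, and at -53.2 on the second. Cdk8 read 41.3 to 43.8 CPM in Cdk8 knockout cells, 50.9 to 56.3 CPM in RasG12V cells and 43.7 to 49.5 CPM in untransformed cells, where it overlapped with the knockout. Cdk19 read 45.0 to 53.0 CPM in Cdk19 knockout cells, 64.6 to 93.6 CPM in RasG12V cells and 83.4 to 91.6 CPM in untransformed cells. These are reads over the whole gene, and the deleted part is not given in the sources used here. Hras read 444 to 456 CPM in Cdk8 knockout, 402 to 439 CPM in Cdk19 knockout and 312 to 537 CPM in RasG12V cells, with the lowest of these in RasG12V replicate 3, against 40.6 to 57.5 CPM in untransformed cells.

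Epithelial markers (Krt8, Krt18, Epcam and 8 others) summed to 6601 to 7645 CPM in Cdk8 knockout, 6231 to 7156 CPM in Cdk19 knockout, 6283 to 8049 CPM in RasG12V and 8307 to 10028 CPM in untransformed cells. Markers of stellate cells and fibroblasts were far lower, with a sum of 2.90 to 3.14 CPM in Cdk8 knockout, 1.80 to 2.34 CPM in Cdk19 knockout, 4.45 to 5.21 CPM in RasG12V and 0.639 to 1.21 CPM in untransformed cells. Only 2 of the 10 stellate and fibroblast markers passed the filter on low counts, and Hand2 and Thy1 were at 0 in every library. Endothelial markers summed to 0.276 to 0.669 CPM with Kdr at 0, and leukocyte markers to 3.62 to 7.89 CPM with Adgre1 at 0. Mesothelial markers summed to 1091 to 1658 CPM, and that sum was nearly all Msln. With RasG12V, 2 of 10 tested epithelial markers were called higher and 6 lower against untransformed cells, beside 11.9% and 11.5% of all genes. The 2 tested stellate and fibroblast markers were called higher. The part of these shifts in the results below was not tested. In these bulk samples, fewer cells of a type and less RNA per cell cannot be told apart.

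Of the 71 members, 37 passed the filter on low counts and were tested: 15 of 44 collagens, 9 of 11 laminins and 13 of 16 of the other genes. Together the members held 0.284 ± 0.0197% of gene counts in Cdk8 knockout, 0.272 ± 0.0165% in Cdk19 knockout, 0.278 ± 0.0101% in RasG12V and 0.317 ± 0.0206% in untransformed cells (SD, n = 3 each). To compare genes with each other, levels were divided by exon length, as CPM per kilobase averaged over the 12 libraries. On this scale the 10 highest members held 88.9% of the sum over all members. They were Sparc (105 CPM per kilobase), Fn1 (38.0), Lamb1 (33.8), Col18a1 (32.9), Agrn (29.6), Col4a1 (27.0), Loxl2 (21.9), Lama5 (21.3), Col4a2 (20.9) and Lamb2 (19.2). Lamc1 stood at 17.0 and Hspg2 at 5.61 CPM per kilobase, and every member below Col27a1, at 1.05, was under 1 CPM per kilobase.

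By role, 20.5% of the summed CPM per kilobase came from laminin beta and gamma chains, 12.8% from collagen IV, 9.02% from the basement membrane glycoproteins Agrn, Hspg2, Nid1 and Nid2, and 8.54% from collagens VII, XV and XVIII. The fibrillar collagens held 0.456% and collagen VI 0.0432%. Basement membrane genes thus made up the larger part of the sum, beside Sparc and Fn1 as the highest single members.

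The 34 untested members were all low, at no more than 0.319 CPM in any library. Col26a1, Col8a2, Lama1 and Lox had 0 counts in every library, which allows up to 0.0813 to 0.121 CPM, 15 had 1 to 9 counts in all and 15 had 10 or more. The genes of collagen I and III, the main fibrillar collagens of scar tissue, were among them: Col1a1 had 70 counts over the 12 libraries, Col1a2 had 1 and Col3a1 had 1. The other 3 collagen IV genes below the filter had few counts, with 5 of Col4a3, 3 of Col4a4 and 30 of Col4a6 over all libraries.

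The laminin beta chains changed with transformation in both directions. Lamb1 encodes the widespread beta chain of embryonic and many adult laminins, Lamb2 the beta chain that replaces it in mature basement membranes such as that of the kidney glomerulus, and Lamb3 the beta chain of the laminin that anchors stratified epithelia. In all 3 transformed groups Lamb1 was higher and Lamb2 and Lamb3 were lower than in untransformed cells. Sequences just upstream of a start of each gene are shown because the 3 genes of 1 chain family moved in opposite directions. They come from RefSeq on GRCm38.p6. Each is given 5′ to 3′ on the gene's strand and ends at the base before the first exon of GENCODE M21 at that start. Capitals mark the GC box GGGCGG, the TATA motif TATAAA, the CCAAT box CCAAT and the AP-1 motif TGANTCA on either strand.
Lamb1, chr12:31265043-31265233, plus strand: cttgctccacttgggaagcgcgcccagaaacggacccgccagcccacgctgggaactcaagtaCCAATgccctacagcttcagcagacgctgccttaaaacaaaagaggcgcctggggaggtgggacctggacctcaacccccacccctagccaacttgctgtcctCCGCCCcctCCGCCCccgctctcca
Lamb2, chr9:108479612-108479735, plus strand: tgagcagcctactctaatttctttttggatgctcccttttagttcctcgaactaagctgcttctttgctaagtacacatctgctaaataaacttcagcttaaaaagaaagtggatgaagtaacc
Lamb3, chr1:193301744-193301992, plus strand: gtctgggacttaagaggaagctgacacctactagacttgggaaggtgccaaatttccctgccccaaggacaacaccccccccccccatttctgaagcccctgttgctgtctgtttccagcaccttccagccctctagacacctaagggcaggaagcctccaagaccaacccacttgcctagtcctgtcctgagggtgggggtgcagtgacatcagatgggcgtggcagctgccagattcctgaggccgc
The Lamb1 stretch held 2 GC boxes and 1 CCAAT box, on 191 bases with 63.9% G and C. The Lamb2 stretch of 124 bases (37.9% G and C) and the Lamb3 stretch of 249 bases (58.6% G and C) held none of the 4 motifs, which says only that these letters are not in these windows. The Lamb3 stretch is 1 of 2 RefSeq windows of that gene and lies within its annotated span. Over the 250 bases before the start, 31 of 49 members with a RefSeq window held the GC box, against 32.9% of 27025 genes. These 27025 are more than the 21906 protein-coding genes counted here. All members are protein-coding, so this share and the next ones compare unlike sets. The CCAAT box was in 16 of the 49 (34.5% of all genes), TATAAA in 6 (13.0%) and the AP-1 motif in 1, Col6a1 (6.87%).

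Lamb1 (chr12:31265234-31329644) read 408, 330 and 404 CPM in Cdk8 knockout, 362, 352 and 397 CPM in Cdk19 knockout and 400, 433 and 398 CPM in RasG12V cells, against 162, 167 and 214 CPM in untransformed cells. No transformed library reached down to an untransformed one. In edgeR's quasi-likelihood test with Benjamini-Hochberg adjustment, which all adjusted p-values here come from unless another tool is named, Lamb1 rose with RasG12V by a log2 fold change of 1.18 (SE 0.12, adjusted p = 1.79e-05). Against untransformed cells the change was 1.07 in Cdk8 knockout (SE 0.12, adjusted p = 3.89e-05) and 1.04 in Cdk19 knockout cells (SE 0.12, adjusted p = 4.69e-05).

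Lamb2 (chr9:108479736-108490530) was the mirror image of Lamb1, with 94.97, 76.0 and 92.0 CPM in Cdk8 knockout, 69.5, 75.8 and 90.7 CPM in Cdk19 knockout and 71.2, 78.4 and 104 CPM in RasG12V cells, against 229, 199 and 220 CPM in untransformed cells. Its log2 fold change with RasG12V was -1.35 (SE 0.15, adjusted p = 3.75e-05), and again no transformed library overlapped with an untransformed one. In Cdk8 knockout it was -1.30 (adjusted p = 4.77e-05) and in Cdk19 knockout -1.46 (adjusted p = 1.91e-05).

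Lamb3 (chr1:193207699-193343878) had the smallest adjusted p of all members in each comparison with untransformed cells. It read 7.001, 6.34 and 6.42 CPM in Cdk8 knockout, 5.04, 5.01 and 5.55 CPM in Cdk19 knockout and 4.12, 5.56 and 4.97 CPM in RasG12V cells, against 31.6, 30.8 and 34.2 CPM in untransformed cells. With RasG12V it was 6.60-fold lower (log2 fold change -2.72, SE 0.12, adjusted p = 5.63e-08). It was 4.89-fold lower in Cdk8 knockout (adjusted p = 1.90e-07) and 6.19-fold lower in Cdk19 knockout cells (adjusted p = 8.75e-08). The annotated span of Lamb3 overlaps 2 other genes on its own strand, and reads in shared exons are not counted for either.

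The beta chain mix per kilobase therefore differed. Lamb1 made up 71.3 ± 0.294% of beta chain CPM per kilobase in Cdk8 knockout, 73.2 ± 1.65% in Cdk19 knockout and 74.0 ± 4.13% in RasG12V cells, against 31.0 ± 3.28% in untransformed cells (SD, n = 3 each). Lamb2 made up 26.8% in Cdk8 knockout, 25.3% in Cdk19 knockout and 24.7% in RasG12V cells, against 60.7% in untransformed cells. The ratio of Lamb1 to Lamb2 per kilobase was 2.66 in Cdk8 knockout, 2.91 in Cdk19 knockout and 3.06 in RasG12V cells, against 0.514 in untransformed cells. It was between 2.345 and 3.45 in the 9 transformed libraries and between 0.433 and 0.597 in the 3 untransformed ones.

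**Figure D1:**
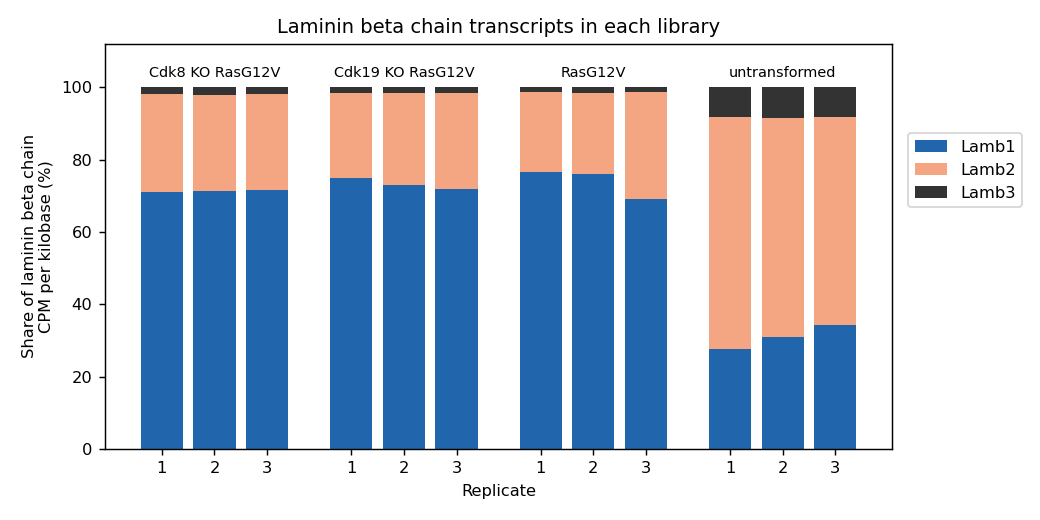
Stacked bars give the share of Lamb1, Lamb2 and Lamb3 in the summed CPM per kilobase of the 3 laminin beta chains (vertical axis, percent) in each of the 12 libraries. Lamb1 holds 69.2% to 76.6% in the RasG12V libraries and 27.7% to 34.3% in the untransformed ones, and Lamb3 holds 1.18% to 1.46% in the RasG12V and 8.13% to 8.61% in the untransformed libraries.

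Of the partners of the beta chains, Lamc1, the gamma chain of most laminins, fell in RasG12V cells by a log2 fold change of -0.56 (SE 0.11, adjusted p = 0.00239). It averaged 126 ± 13.4 CPM in Cdk8 knockout, 134 ± 2.12 CPM in Cdk19 knockout and 122 ± 8.63 CPM in RasG12V cells, against 180 ± 25.5 CPM in untransformed cells. Lama5, the alpha chain that forms a trimer with Lamb1 and Lamc1, made up 99.28% or more of alpha chain CPM per kilobase in every library. It averaged 218 ± 15.3 CPM in Cdk8 knockout, 233 ± 27.7 CPM in Cdk19 knockout, 253 ± 30.9 CPM in RasG12V and 266 ± 41.4 CPM in untransformed cells. Its Cdk8 knockout libraries, at 201 to 230 CPM, all lay below the untransformed ones, at 232 to 312 CPM, and those of the other groups overlapped with untransformed. Cdk8 knockout and untransformed libraries were fully separated for 42.6% of all genes. Lama5 passed no test (log2 fold change of Cdk8 knockout against untransformed cells -0.29, adjusted p = 0.126). Of the 3 chains of that trimer, 1 (Lamb1) thus rose, 1 (Lamc1) fell and 1 (Lama5) was not called with RasG12V.

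Lama3, the alpha chain that pairs with Lamb3 in the anchoring laminin, was at or below 1.03 CPM in every library and passed no test.

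Collagen IV transcripts rose together. Col4a1 (chr8:11198423-11312826, minus strand) and Col4a2 (chr8:11312805-11449287, plus strand) encode the ubiquitous alpha 1 and alpha 2 chains, and their annotated spans meet head to head with 22 shared bases. Col4a1 read 210, 197 and 227 CPM in Cdk8 knockout, 241, 228 and 260 CPM in Cdk19 knockout and 193, 212 and 195 CPM in RasG12V cells, against 158, 147 and 148 CPM in untransformed cells. Col4a2 read 144, 134 and 152 CPM in Cdk8 knockout, 163, 158 and 177 CPM in Cdk19 knockout and 132, 140 and 141 CPM in RasG12V cells, against 111.8, 104 and 105 CPM in untransformed cells. For both genes every transformed library was above every untransformed one, and the Cdk19 knockout libraries were the highest.

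The log2 fold change with RasG12V was 0.40 for Col4a1 (SE 0.08, adjusted p = 0.00252) and 0.36 for Col4a2 (SE 0.07, adjusted p = 0.00334). In Cdk19 knockout against untransformed cells it was 0.69 for Col4a1 (adjusted p = 5.20e-05) and 0.64 for Col4a2 (adjusted p = 5.78e-05), and in Cdk8 knockout cells it was 0.48 for Col4a1 (adjusted p = 7.10e-04) and 0.42 for Col4a2 (adjusted p = 0.00117). The ratio of Col4a1 to Col4a2 per kilobase was 1.31, 1.30 and 1.29 in Cdk8 knockout, Cdk19 knockout and RasG12V cells and 1.25 in untransformed cells, so the pair kept nearly the same proportion. Col4a5, the X-linked chain whose human counterpart is mutated in Alport syndrome, went the other way, with a log2 fold change of -0.67 with RasG12V (SE 0.20, adjusted p = 0.0297). It read 11.1, 11.03 and 19.5 CPM in RasG12V cells, against 24.2, 20.6 and 21.5 CPM in untransformed cells, the high RasG12V value being replicate 3. The Col4a5 call was lost with only these 2 groups in the fit (adjusted p = 0.138), without RasG12V replicate 1 or 2 (0.115 and 0.117) and without untransformed replicate 1 or 2 (0.102 and 0.0548). With both replicates 3 left out the log2 fold change was -1.03 (adjusted p = 5.74e-06). Its neighbour Col4a6, 1.308 kb away on the opposite strand, was not tested.

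Among the other basement membrane genes, the nidogens differed from each other. Nid2, which links laminin and collagen IV networks, had 9 counts over the 3 RasG12V libraries and 94 over the untransformed ones, a log2 fold change of -3.18 (SE 0.46, adjusted p = 3.59e-04). Since Nid2 passed the filter on low counts through groups in which it was higher, its p-values are a description. It averaged 0.413 ± 0.110 CPM in Cdk8 knockout, 0.115 ± 0.0551 CPM in Cdk19 knockout and 0.113 ± 0.0724 CPM in RasG12V cells, against 1.00 ± 0.249 CPM in untransformed cells. The Nid2 call in Cdk8 knockout against untransformed cells (log2 fold change -1.28, adjusted p = 0.0228) was lost without Cdk8 knockout or untransformed replicate 1 or 2 (highest adjusted p = 0.115). Nid1 averaged 0.890 ± 0.252 CPM in RasG12V and 1.19 ± 0.0857 CPM in untransformed cells and was not called (log2 fold change -0.40, adjusted p = 0.252).

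Agrin and perlecan, both heparan sulfate proteoglycans, were far more abundant. Agrn read 227, 255 and 326 CPM in RasG12V cells, against 350, 300 and 413 CPM in untransformed cells, and these ranges overlapped (log2 fold change -0.40, SE 0.15, adjusted p = 0.0763). It was called lower in both knockouts against untransformed cells, by a log2 fold change of -0.53 in Cdk8 knockout (adjusted p = 0.0211) and -0.62 in Cdk19 knockout cells (adjusted p = 0.00927). The Cdk8 knockout call was lost without Cdk8 knockout replicate 1 or 2 or untransformed replicate 1 or 3 (highest adjusted p = 0.105). The Cdk19 knockout call was lost without Cdk19 knockout replicate 1 or 2 (highest adjusted p = 0.0523). Hspg2 was not called in any comparison and read 65.0 to 102 CPM over the 12 libraries. Col18a1, the source of endostatin, read 175, 187 and 276 CPM in RasG12V cells, against 311, 290 and 242 CPM in untransformed cells. Its 2 replicates 3 went towards each other (log2 fold change -0.40, adjusted p = 0.0895), and without them it was called (-0.75, SE 0.09, adjusted p = 3.05e-06).

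Sparc and Fn1 were the highest members and differed in their response. Sparc, which binds collagen and modulates its deposition, read 321, 365 and 358 CPM in Cdk8 knockout, 372, 338 and 348 CPM in Cdk19 knockout and 271, 271 and 318 CPM in RasG12V cells, against 709, 663 and 459 CPM in untransformed cells. The untransformed libraries were the highest, and replicate 3 of them the nearest to the others. The log2 fold change was -0.81 in Cdk8 knockout (SE 0.14, adjusted p = 9.90e-04) and -0.79 in Cdk19 knockout cells (SE 0.14, adjusted p = 0.00112), beside -1.09 with RasG12V (adjusted p = 1.22e-04). Fn1, the fibronectin gene, was not called against untransformed cells in any group. It read 528, 573 and 295 CPM in RasG12V cells and 509.9, 510.5 and 321 CPM in untransformed cells, and the low value in each was replicate 3.

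Tnc and Acan started from very low levels. Tenascin C, the product of Tnc, is an adhesion-modulating glycoprotein of developing and wounded tissue, and aggrecan, the product of Acan, is the large proteoglycan of cartilage. Tnc read 5.48, 4.34 and 5.75 CPM in Cdk8 knockout, 2.78, 2.59 and 3.08 CPM in Cdk19 knockout and 5.94, 6.33 and 1.33 CPM in RasG12V cells, against 0.284, 0.216 and 0.0894 CPM in untransformed cells, where the 3 libraries held 18 counts. Since Tnc passed the filter on low counts through groups in which it was higher, its p-values are a description. The log2 fold change with RasG12V was 4.52 (SE 0.58, adjusted p = 1.46e-04), the largest rise of a member. The stretch upstream of Tnc is shown because of this size, with capitals as above.
Tnc, chr4:64047016-64047265, minus strand: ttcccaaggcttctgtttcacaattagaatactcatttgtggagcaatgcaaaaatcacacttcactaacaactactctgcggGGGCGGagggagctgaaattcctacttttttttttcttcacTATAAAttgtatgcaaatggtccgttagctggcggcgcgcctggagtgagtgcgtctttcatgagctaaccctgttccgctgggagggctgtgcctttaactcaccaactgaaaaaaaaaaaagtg
It held 1 GC box and 1 TATAAA and no AP-1 motif, and is 1 of 2 RefSeq windows of Tnc. Acan read 3.29, 3.25 and 3.68 CPM in Cdk8 knockout, 6.87, 4.97 and 7.06 CPM in Cdk19 knockout and 4.33, 4.17 and 4.61 CPM in RasG12V cells, against 0.426, 0.556 and 0.179 CPM in untransformed cells. It rose with RasG12V by a log2 fold change of 3.50 (SE 0.29, adjusted p = 4.01e-06), and no library of a transformed group overlapped with an untransformed one. The Tnc and Acan levels are of the order of the summed stellate and fibroblast markers given above, which were also higher in the transformed groups. Among the transformed groups that sum was lowest in Cdk19 knockout cells (1.80 to 2.34 CPM), where Tnc averaged lowest and Acan highest. A link between these genes and the markers was not tested. Fbn1, the fibrillin of microfibrils, had 7 counts over the untransformed libraries and was called higher in Cdk8 knockout (log2 fold change 2.32, SE 0.75, adjusted p = 0.0403) and Cdk19 knockout cells (2.53, SE 0.74, adjusted p = 0.0247) and not in RasG12V cells (1.71, SE 0.82, adjusted p = 0.158). Like Tnc, it passed the filter on low counts through groups in which it was higher. Leaving out single libraries ended the Fbn1 call in 6 of 12 cases for Cdk8 knockout and 4 of 12 for Cdk19 knockout, with untransformed replicates 1 and 2 and Cdk19 knockout replicate 1 in both sets. Whether these changes differ was tested between the knockouts and RasG12V, with no call.

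**Figure D2:**
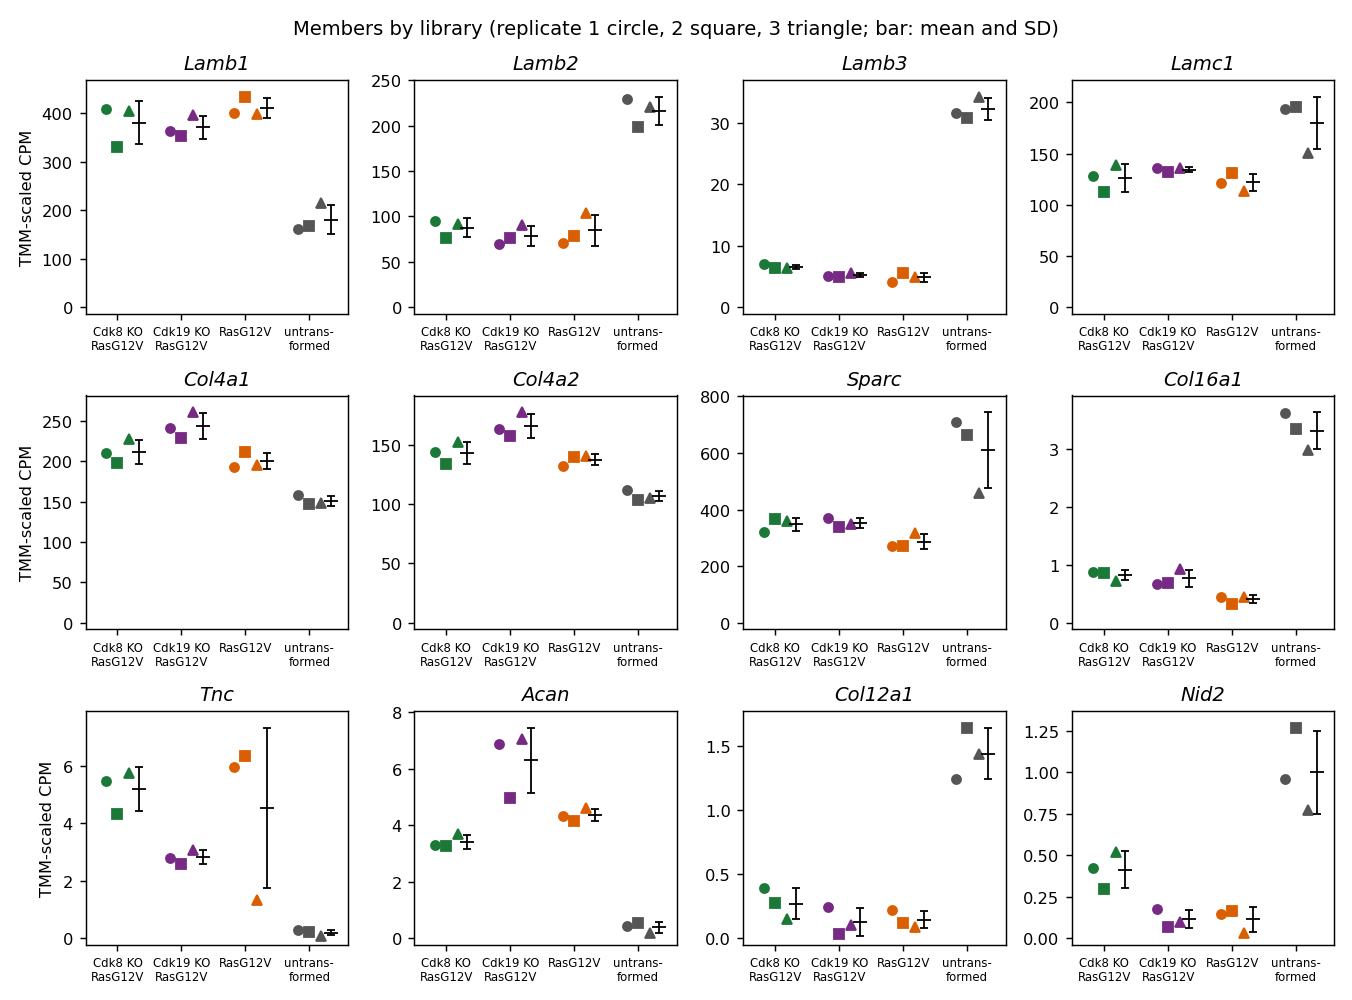
TMM-scaled CPM of 12 members (vertical axes from 0) in each library, with 3 points per group and a bar for the mean and SD. Lamb1, Col4a1, Col4a2, Tnc and Acan are higher and Lamb2, Lamb3, Lamc1, Sparc, Col16a1, Col12a1 and Nid2 lower in the 3 transformed groups than in untransformed cells, and the RasG12V replicate 3 triangle of Tnc lies at 1.33 CPM, below the other 2.

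Several low-level collagens fell. Col16a1 and Col12a1, which encode fibril-associated collagens, averaged 0.405 ± 0.0683 and 0.144 ± 0.0667 CPM in RasG12V cells, against 3.31 ± 0.320 and 1.44 ± 0.198 CPM in untransformed cells. Their log2 fold changes were -3.00 (SE 0.23, adjusted p = 2.23e-06) and -3.31 (SE 0.46, adjusted p = 2.65e-04), and the 3 RasG12V libraries held 12 counts of Col12a1. Since Col12a1 passed the filter on low counts through groups in which it was higher, its p-values are a description. Col27a1, a fibrillar collagen of cartilage, averaged 8.55 ± 0.293 CPM in RasG12V and 20.5 ± 1.92 CPM in untransformed cells (log2 fold change -1.26, SE 0.20, adjusted p = 6.12e-04). Col8a1, a short-chain collagen known from vessel walls and the cornea, rose. It read 3.53, 4.50 and 6.84 CPM in RasG12V cells, against 0.674, 0.804 and 3.25 CPM in untransformed cells (log2 fold change 1.64, SE 0.46, adjusted p = 0.0220). That call was lost without RasG12V replicate 3 (adjusted p = 0.0644), without untransformed replicate 1 or 2 (0.0794 and 0.0865), with only the 2 groups in the fit (0.138) and with no filter on low counts (0.107), while without both replicates 3 the log2 fold change was 2.41 (adjusted p = 1.96e-07).

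Of the lysyl oxidases, which cross-link collagen and elastin, Loxl2 was the only one at a high level, at 102 ± 12.3 CPM in untransformed cells. It averaged 130 ± 9.08 CPM in Cdk8 knockout and 126 ± 3.83 CPM in Cdk19 knockout cells, a log2 fold change of 0.35 (adjusted p = 0.0162) and 0.31 (adjusted p = 0.0313) against untransformed cells. The Cdk8 knockout call was lost without Cdk8 knockout replicate 3 or untransformed replicate 1 or 2 (highest adjusted p = 0.0787), and the Cdk19 knockout call without any 1 Cdk19 knockout library or untransformed replicate 1 or 2 (highest adjusted p = 0.135). In RasG12V cells it averaged 116 ± 9.54 CPM and was not called (0.19, adjusted p = 0.177). Loxl3 and Loxl4 passed no test against untransformed cells, Loxl1 was too low to test, and Lox had no counts.

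In total, RasG12V against untransformed cells called 15 of 37 tested members, 6 higher and 9 lower, which is 40.5% beside 23.4% of all 14283 genes tested (11.9% higher and 11.5% lower). DESeq2 called 6 higher and 9 lower, beside 26.2% of all genes (13.3% higher and 12.9% lower), and limma-voom also 6 and 9, beside 23.4% (11.8% higher and 11.7% lower). RasG12V and untransformed libraries were fully separated for 16 members, 7 above and 9 below, beside 32.3% of all genes. The median log2 fold change was -0.19 over the members and -0.00041 over all genes tested. Without both replicates 3 it was -0.06 over the members and -0.0029 over all genes. The 6 that rose were Tnc, Acan, Col8a1, Lamb1, Col4a1 and Col4a2, and the 9 that fell were Lamb2, Lamb3, Lamc1, Col4a5, Nid2, Sparc, Col12a1, Col16a1 and Col27a1. Without both replicates 3 it was 23 members, 9 higher and 14 lower, beside 40% of all genes tested (19% higher and 21% lower), and all 15 were called again. Tnc, Nid2, Col12a1, Fbn1 and Lama2 had fewer than 10 counts in every library of at least 1 group, so they entered the test through groups in which they were higher, and counts over the tested members are a description.

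The comparisons of the knockouts with untransformed cells share the untransformed libraries with this one. Cdk8 knockout cells had 17 members called, 7 higher and 10 lower, beside 24.4% of all genes (12.3% higher and 12.2% lower), and Cdk19 knockout cells had 23, 10 higher and 13 lower, beside 25.3% (12.4% higher and 12.9% lower). Without untransformed replicate 1 these counts were 11, beside 17.4% of all genes, and 15, beside 18.6%. Without Cdk19 knockout replicate 2 the count for Cdk19 knockout was 14, beside 18.1% of all genes. In all 3 comparisons, which share their untransformed libraries, 14 of 37 members were called, each in 1 direction, beside 16.8% of all genes: Acan, Col4a1, Col4a2, Lamb1 and Tnc were higher and Col12a1, Col16a1, Col27a1, Col4a5, Lamb2, Lamb3, Lamc1, Nid2 and Sparc lower. Of these, Col4a5, Col27a1 and Nid2 lost the call in Cdk8 knockout and Col4a5, Col27a1 and Lamc1 in Cdk19 knockout cells when untransformed replicate 1 was left out (highest adjusted p over the libraries left out 0.149 and 0.142). Another 14 were called in none, beside 67% of all genes, among them Fn1, Hspg2, Lama5 and Nid1. In Cdk19 knockout cells 5 members passed that passed in neither other comparison. Of these, Col5a1 (log2 fold change 1.56, adjusted p = 0.00213) and Col7a1 (0.71, adjusted p = 0.0329) were higher and Col20a1 (-1.51, adjusted p = 0.00224), Col15a1 (-0.87, adjusted p = 0.0497) and Col18a1 (-0.49, adjusted p = 0.0379) lower than in untransformed cells. Leaving out single libraries ended the call of Col15a1 in 10 of 12 cases, of Col18a1 in 7 and of Col7a1 in 4, with untransformed replicates 1 and 2 and Cdk19 knockout replicate 2 in all 3 sets, and never that of Col5a1 or Col20a1. None of the 5 was called by edgeR over 12 libraries, with the filter on low counts, in Cdk19 knockout against RasG12V cells or between the knockouts.

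**Figure D3:**
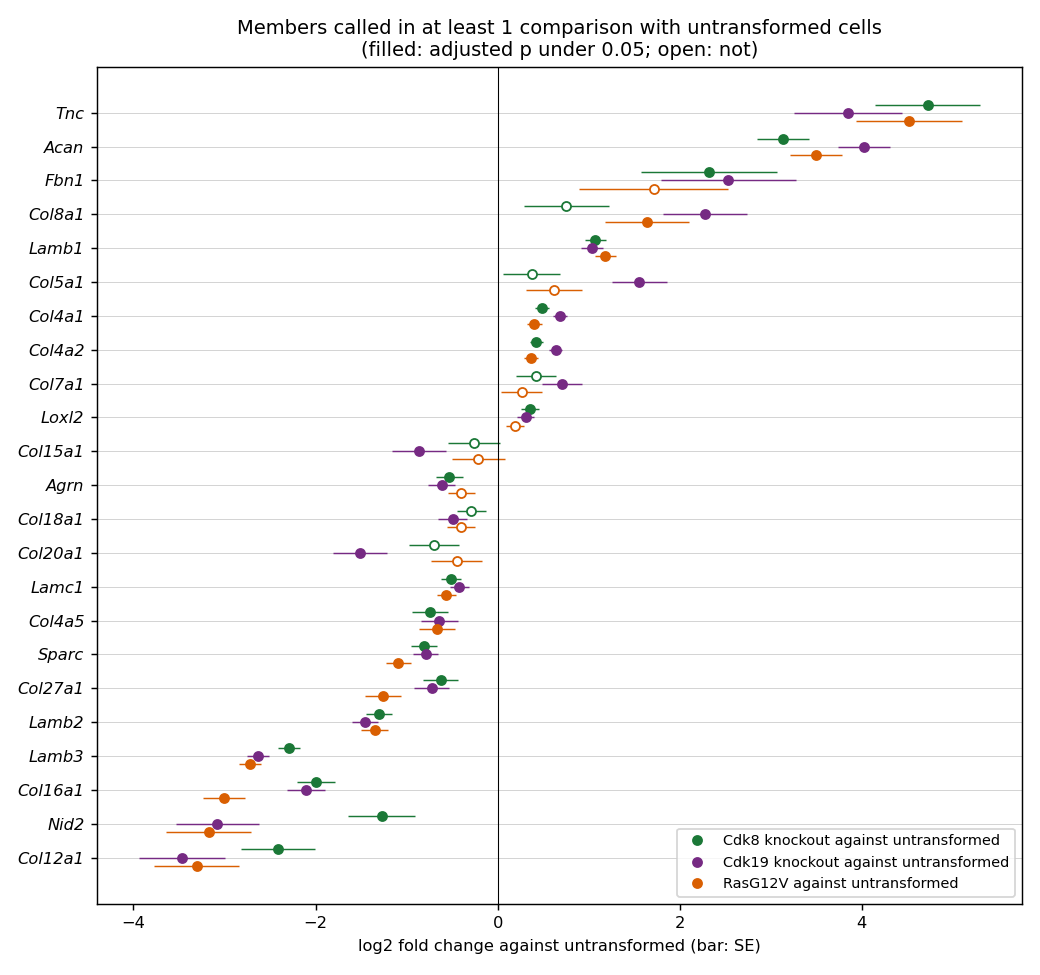
Log2 fold changes against untransformed cells (horizontal axis, bars are SE) of the 23 members called in at least 1 comparison, for Cdk8 knockout, Cdk19 knockout and RasG12V cells, filled where the adjusted p was under 0.05. The 3 points lie on the same side of 0 for each gene, between -3.47 (Col12a1 in Cdk19 knockout) and 4.72 (Tnc in Cdk8 knockout).

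Against RasG12V cells, no member passed the threshold in either knockout with all 12 libraries in the fit. In Cdk8 knockout against RasG12V cells 0 of 37 members were called, beside 0% of all genes. An unadjusted p under 0.05 was found for 6 members, beside 871 of 14283 genes. DESeq2 called 0, beside 0.228% of all genes, and limma-voom 0, beside 0%. In Cdk19 knockout against RasG12V cells 0 were called, beside 0.014% of all genes. An unadjusted p under 0.05 was found for 11 members, beside 1089 of 14283 genes. DESeq2 called 0, beside 0.462% of all genes, and limma-voom 0, beside 0.014%. With no filter on low counts edgeR called 1 member lower, Col20a1 (log2 fold change -1.07, adjusted p = 0.00889), beside 0.28% of all genes. The smallest adjusted p was 0.546 (Col16a1) in Cdk8 knockout and 0.347 (Nid1) in Cdk19 knockout cells. The groups were fully separated for 10 members in Cdk8 knockout and for 15 in Cdk19 knockout against RasG12V cells, beside 12.5% and 14.5% of all genes.

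The members named next are examples, and their share of the members or of all genes was not counted. For Tnc, Fn1, Col4a5, Col18a1, Col8a1, Sparc and Agrn, RasG12V replicate 3 lay farther from the other 2 than these from each other. With it and untransformed replicate 3 left out, Cdk8 knockout against RasG12V cells called 3 members, beside 1.59% of all genes (1.18% higher): Sparc (log2 fold change 0.37, SE 0.07, adjusted p = 0.00964), Col18a1 (0.35, SE 0.08, adjusted p = 0.0439) and Nid1 (1.15, SE 0.26, adjusted p = 0.0322), all higher. Cdk19 knockout against RasG12V cells then called 8, beside 2.01% of all genes (1.11% higher and 0.897% lower). Higher were Sparc (0.39, adjusted p = 0.00467), Nid1 (1.14, adjusted p = 0.0297), Col8a1 (0.96, adjusted p = 0.00467), Col5a1 (1.21, adjusted p = 0.0198) and Col4a2 (0.30, adjusted p = 0.0350). Among the lower ones were Tnc (-1.11, adjusted p = 0.00112) and Fn1 (-0.54, adjusted p = 0.00181). RasG12V then has 2 libraries, and its spread is taken from all the groups.

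Between the 2 knockouts, which members were called depended on the fit. Among others, Fn1 and Tnc were higher and Col8a1, Acan, Col5a1 and Loxl4 lower in Cdk8 knockout than in Cdk19 knockout cells when the fit held only these 2 groups, which called 7 of 34 tested members beside 3.63% of all genes (2.6% higher and 1.03% lower). With all 12 libraries in the fit 0 of 37 were called, beside 0.105% of all genes. An unadjusted p under 0.05 was then found for 13 members, beside 1027 of 14283 genes. DESeq2 called 2 (Acan and Col5a1), beside 0.876% of all genes, limma-voom 0, beside 0.112%, and edgeR with no filter on low counts the same 2, beside 0.36%. The groups were fully separated for 16 members, beside 20.7% of all genes. Neither knockout holds a library that stood apart, and without both replicates 3 of the other groups 8 members were called beside 5.32% of all genes, the 7 of the fit with these 2 groups and Nid2.

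Col8a1 read 2.09, 2.82 and 3.16 CPM in Cdk8 knockout cells, against 7.75, 7.91 and 7.56 CPM in Cdk19 knockout cells, with no overlap. Its log2 fold change was -1.51 (adjusted p = 7.81e-06) with these 2 groups and -1.52 (adjusted p = 0.345) with 12 libraries. Acan had an adjusted p of 0.00268 (log2 fold change -0.89), Tnc of 0.00368 (0.88), Col5a1 of 0.00424 (-1.19), Fn1 of 0.0183 (0.36) and Loxl4 of 0.0405 (-0.43) with these 2 groups. With 12 libraries the adjusted p was 0.25 for Acan, 0.723 for Tnc, 0.241 for Col5a1, 0.861 for Fn1 and 0.636 for Loxl4. Col5a1, a regulator of fibril diameter, read 1.70, 1.00 and 1.49 CPM in Cdk8 knockout cells, against 3.24, 2.52 and 3.71 CPM in Cdk19 knockout cells. The collagen IV pair was not called in either fit: Col4a1 had a log2 fold change of -0.20 (adjusted p = 0.134) and Col4a2 of -0.21 (adjusted p = 0.0988) with these 2 groups.

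**Figure D4:**
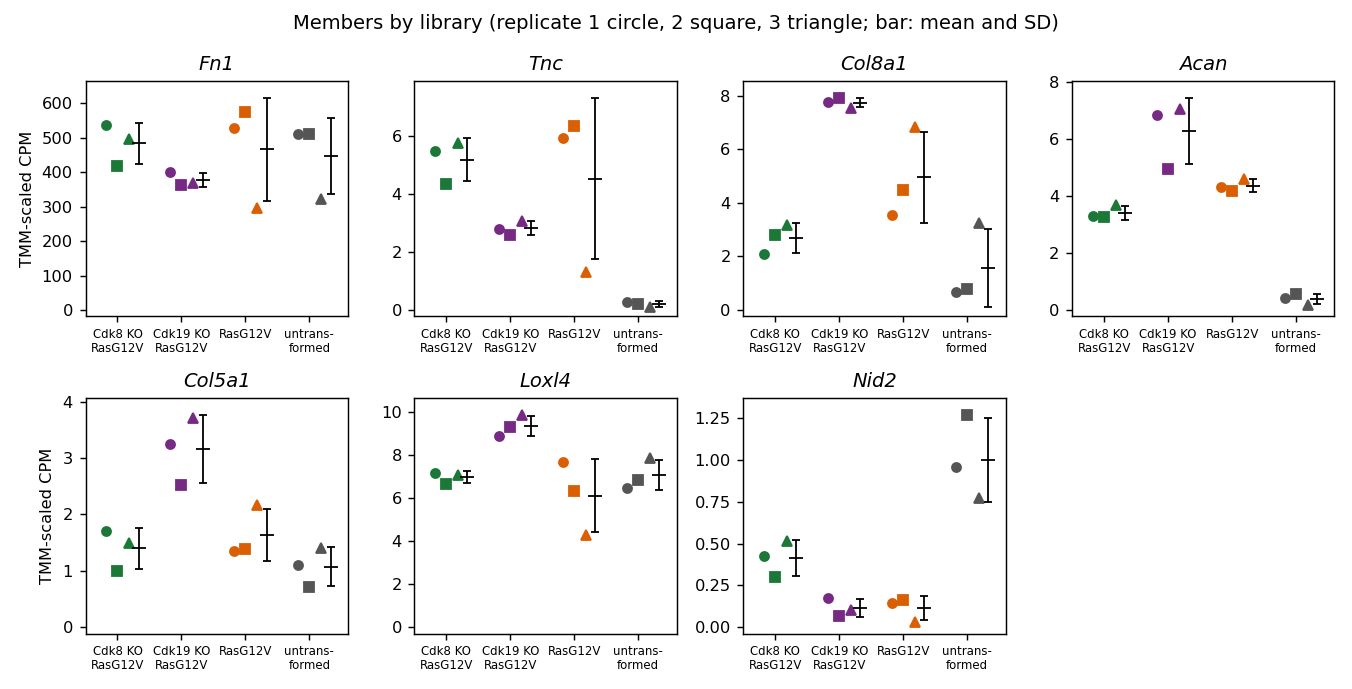
TMM-scaled CPM of 7 members (vertical axes from 0) in each library, with 3 points per group and a bar for the mean and SD. The 7 were picked from members called between the knockouts in the fit with these 2 groups or without both replicates 3. The Cdk8 and Cdk19 knockout points do not overlap in any panel, which this choice favours. Over all genes, 20.7% did not overlap between these groups. In the RasG12V and untransformed groups replicate 3 (triangle) lies away from the other 2 for Fn1 and Col8a1.

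The 4 lists of other matrix genes had mixed responses to RasG12V, and by edgeR over 12 libraries 0 of their 49 tested genes were called in either knockout against RasG12V cells or between the knockouts. An unadjusted p under 0.05 was found for 5, 5 and 8 of the 49 in Cdk8 knockout against RasG12V, Cdk19 knockout against RasG12V and Cdk8 against Cdk19 knockout. Over all 14283 genes it was found for 871, 1089 and 1027. DESeq2 called 0, 0 and 1 of the 49 in these 3 comparisons, beside 0.228%, 0.462% and 0.876% of all genes, and limma-voom 0 in each. Without both replicates 3 edgeR called 2, 2 and 7, beside 1.59%, 2.01% and 5.32% of all genes. Of 21 tested genes of collagen modification and processing, 5 rose and 5 fell with RasG12V, where 23.4% of all genes were called (11.9% higher and 11.5% lower). With only the 2 groups in the fit 3 of this list rose and 2 fell. That fit called 1574 genes in all, against 3340 over 12 libraries. From this list 6 in all were called without RasG12V replicate 1 or 2 or untransformed replicate 1 or 2. The 4 genes named next kept their call in each of these fits. The lysyl hydroxylase gene Plod2 (log2 fold change 0.76, adjusted p = 6.39e-06) and the prolyl 4-hydroxylase gene P4ha1 (0.75, adjusted p = 6.31e-05) rose, while P3h4 (-1.26, adjusted p = 2.46e-04) and Pcolce, an enhancer of procollagen cleavage (-1.01, adjusted p = 8.35e-04), fell. Of 9 tested elastic fibre and microfibril genes none rose and 5 fell, beside 11.9% higher and 11.5% lower of all genes. Efemp1, which encodes fibulin 3, had the smallest adjusted p of them and averaged 161 CPM in RasG12V and 576 CPM in untransformed cells (-1.84, adjusted p = 1.01e-07), and the latent TGF-beta binding protein genes Ltbp1 (-0.43, adjusted p = 0.00469) and Ltbp4 (-1.10, adjusted p = 0.00597) fell with it, as did Adamtsl4 (-0.56, adjusted p = 0.00524). With only the 2 groups in the fit 3 fell, Ltbp4 no longer among them.

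Of 11 tested matricellular and other matrix glycoprotein genes 3 rose and 3 fell, beside 11.9% higher and 11.5% lower of all genes. With only the 2 groups in the fit, which called 1574 genes in all, 0 rose and 1 fell. Without untransformed replicate 1 it was 1 and 1. Spp1, the osteopontin gene, averaged 742 CPM in RasG12V and 128 CPM in untransformed cells (2.54, SE 0.54, adjusted p = 0.00443), Npnt (0.28, adjusted p = 0.0121) and Thbs3 (1.04, adjusted p = 0.0210) also rose, and Matn2 fell (-1.21, adjusted p = 0.00212). Spp1 lost its call only in the fit with the 2 groups, Npnt and Thbs3 also without untransformed replicate 1 or 2, and Matn2 in none of the 22 alternatives. Of 8 tested proteoglycan genes 2 rose and 2 fell, beside the same shares of all genes, and those called were all cell-surface proteoglycans. Sdc3 (1.76, adjusted p = 2.56e-04) and Sdc2 (0.57, adjusted p = 0.00130) rose. Sdc1 (-0.92, adjusted p = 1.11e-04) and Gpc1 (-0.58, adjusted p = 0.00415) fell, the last not called with only the 2 groups in the fit. The median log2 fold change was 0.16 for collagen modification, -0.43 for elastic fibre genes, 0.32 for the other glycoproteins and -0.01 for the proteoglycans.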

How the data were processed

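Gene counts of 12 libraries were used. Per the submitters' processing notes, the tools of the authors were FastQC and STAR 2.6.0a, with the build GRCm38.p6, and the annotation release is not given in the sources used here. The deposited tables hold read counts per Ensembl gene, 1 table per library, without normalization. Counts on the reverse strand exceeded those on the forward strand 24.7 to 28.9 times and were used, leaving 24823560 to 36879661 gene counts (65.2% to 67.0% of reads). Reads mapping to several places (23.0% to 26.3%), outside genes (4.31% to 5.85%), unmapped (2.10% to 3.34%) or ambiguous (0.963% to 1.04%) stayed out of library sizes. The labels name RNA depleted of ribosomal RNA and a TruSeq RNA kit.

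Symbols, exon lengths and GRCm38 coordinates came from GENCODE M21 (54079 identifiers matched, 67 did not), and upstream sequences from RefSeq (GRCm38.p6), the first window where a gene had several. The counts were fitted with edgeR 4.0.16 (R 4.3.3), filterByExpr by group, TMM, robust glmQLFit and glmQLFTest over all 12 libraries without a block, Benjamini-Hochberg adjustment over 14283 genes and a threshold of 0.05. SE was taken as |log2 fold change| over the root of F. Alternatives used DESeq2 1.42.0, limma 3.58.1 (voom), other scalings and filters, the unstranded column, a replicate block, only the 2 groups compared, and libraries left out. In simulated counts 200 genes were set to change in RasG12V cells, and all others had the same mean in every group. For RasG12V against untransformed, over 14079 genes, the test recovered 43.3% of 1.5-fold, 69.7% of 2-fold and 95.5% of 4-fold changes. It also called 10 unchanged genes. In the data 23.4% of all genes were called, so recovery there may differ. The floor of 3 counts covers counting error alone, because without molecular identifiers reads can be copies of 1 molecule.

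The members, the lists and the naming rule were chosen with earlier results of these data known. Named are the members called in a comparison (at most the 15 with the smallest adjusted p in full), the 10 with the highest level per kilobase, chains of shared complexes, and up to 4 genes of each other list. The genes called without the 2 libraries that stood apart or between the knockouts alone were also named. Totals over the members include 1 that is not reported here.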

Additional observations from a re-analysis of the deposited data

How the results depend on the processing

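None of the 55 calls of a member over the 12 libraries reversed its direction under the 22 alternatives (1203 values, where the gene was tested). Col18a1 in Cdk8 knockout against RasG12V cells, called higher only without both replicates 3, lay between -0.0035 and 0.35 as single libraries were left out. The number of members called in RasG12V against untransformed cells was 15, ranged from 13 to 19 as each library was left out, and was 23 without both replicates 3 that stood apart. Leaving out each library gave 11 to 19 members for Cdk8 knockout and 14 to 25 for Cdk19 knockout against untransformed cells. Leaving out both replicates 3 gave 3 for Cdk8 knockout and 8 for Cdk19 knockout against RasG12V cells, and no filter on low counts gave 1 for the second. Between the knockouts it was 2 with no filter, 2 by DESeq2, 7 with only these 2 groups, 8 without both replicates 3, and 0 to 3 as each library was left out (3 without untransformed replicate 3 and 1 without RasG12V replicate 3).

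Over all genes, RasG12V against untransformed cells called 3340, or 1574 with only these groups and 5799 without both replicates 3. Cdk8 knockout against RasG12V cells called 0, or 16 with no filter, 30 by DESeq2, 1 with the replicate block, 231 without both replicates 3 and up to 3 leaving out 1 library. Cdk19 knockout against RasG12V cells called 2, or 84 with no filter, 66 by DESeq2, 1 with only these groups, 291 without both replicates 3 and 0 to 21 leaving out 1 library. Between the knockouts it was 15, or 108, 113, 496 and 771 under those settings in the same order, and 0 to 133 leaving out 1 library. Without both replicates 3, Cdk8 and Cdk19 knockout against untransformed cells called 6116 and 6314 genes. The cause of these differences was not tested.

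Deviations from the group means correlated between same-numbered libraries with r from -0.168 to 0.282, over 0.1 in 8 of 18 pairs. Of the 12 libraries, 5 were closest to their own number. RasG12V replicate 3 correlated positively with replicate 3 of the untransformed (0.164), Cdk8 knockout (0.149) and Cdk19 knockout (0.282) groups. Whether the numbers stand for a pairing cannot be told from these values, and the main fit holds no block. With the replicate block, 16 members were called for RasG12V (25.8% of all genes), 19 for Cdk8 knockout (26.3%) and 24 for Cdk19 knockout (27.9%) against untransformed cells, and 0 in the other 3 comparisons (0.007% to 0.119% of all genes). Depth limits members under about 1 CPM, where 3 counts are 0.0813 to 0.121 CPM.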
